A study of Mus musculus with 4 samples.

Results

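Sprouty, Spred and other feedback genes of the RAS-ERK pathway were described in cultures labelled as CD4+ T cells. They came from WT mice and from mice bred to delete the genes of the kinases MEK1 and MEK2 in T cells. The group was set by name, as Spry1, Spry2 and Spry4 of the Sprouty family, Spred1 and Spred2 of the Spred family, and Phlda1, Ier3 and Errfi1, so it held 8 of the 54752 genes listed, and all 8 had enough counts to be tested. Naïve CD4+ T cells had been sorted from the spleens of WT mice and of Mek1/2-tKO mice, which carried Cd4-Cre and were homozygous for floxed alleles (fl/fl) of both Map2k1 and Map2k2. Both groups were stimulated through CD3 and CD28 and skewed towards T follicular helper (Tfh) cells, which help B cells in germinal centers, with IL-6 while TGF-β, IL-4, IFN-γ and IL-2 were blocked with antibodies. On day 3 the viable cells were sorted again, and RNA of 2 libraries per genotype was sequenced. The Cd4-Cre driver acts from the CD4+CD8+ stage in the thymus onwards, so the deletion preceded the culture and also takes place in the CD8 lineage. The age of the mice, the Cre status of the WT mice and the number of mice behind a library were not given in the sources used here, and the p-values therefore measure only the spread between these libraries.

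MEK1 and MEK2 pass the signal from RAS and RAF on to ERK1 and ERK2, which lie downstream of the T-cell receptor. Active ERK induces genes whose products act back on the same route. Sprouty proteins bind adaptors and RAF and restrain the step from receptors to ERK, whereas Spred proteins bring the RAS-inactivating protein neurofibromin to the membrane. Phlda1 (also called TDAG51) encodes a pleckstrin-homology-like protein first described in activated T cells, Ier3 (also called IEX-1) encodes an ERK substrate that affects cell survival and prolongs ERK phosphorylation, and Errfi1 (also called MIG6) encodes an inhibitor that binds the kinase domain of ErbB receptors.

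The libraries held 16330802 to 18931090 counts, and 3 counts, the limit that a count of 0 allows, correspond to 0.159 to 0.184 CPM (counts scaled to the size of the library), for counting error only. Map2k1, which encodes MEK1, stood at 182 and 187 normalised CPM in WT and at 98.0 and 105 in Mek1/2-tKO libraries, and fell by 0.86 on the log2 scale (SE 0.08, adjusted p = 1.29e-06, edgeR's quasi-likelihood test). Map2k2, which encodes MEK2, stood at 155 and 165 in WT and at 172 and 182 in Mek1/2-tKO libraries (log2 fold change 0.15, SE 0.08, adjusted p = 0.126), so its gene-level count did not show the deletion that the genotype names. The authors checked the genotype by PCR of tail DNA, and phosphorylated MEK1/2 and ERK1/2 by flow cytometry in naïve splenic CD4+ T cells. RNA counts measure neither. Which exons were deleted was not given in the sources used here.

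The marker genes of other cell types moved with the genotype, and the cells labelled as CD4+ T cells did not carry CD4+ T-cell markers alone. Of 15 T-cell identity genes 8 fell, with Cd4 at -3.73 (SE 0.12) and Cd28 at -1.99 (SE 0.10) on the log2 scale, and Thy1 rose by 0.83 (SE 0.07). The summed level of the 15 genes was 4109 to 4160 CPM in WT and 3133 to 3335 CPM in Mek1/2-tKO libraries. Over all genes tested, 16.4% were called lower and 19.3% higher. Of 17 B-cell markers 16 rose, with the largest log2 fold changes for Fcrla and Cd79b. The sum of the list went from 1506 to 1525 CPM in WT to 7564 to 7566 CPM, and its largest part was Ighm (3068 and 3095 CPM in Mek1/2-tKO libraries). Both CD8 genes rose (59.3 to 67.4 CPM against 214 to 238 CPM), as did 9 of 10 NK-cell markers (130 to 134 CPM against 804 to 879 CPM). Ncr1 and Klre1 had the largest log2 fold changes of the NK-cell list, but Ncr1 reached only 11.5 and 9.85 CPM in Mek1/2-tKO libraries. The largest part of the NK-cell sum was Nkg7, with 62.8 and 65.1 CPM in WT and 436 and 405 CPM in Mek1/2-tKO libraries. How far this list tells NK cells from CD8 T cells was not tested. Itga2 was the NK-cell marker called lower, a call that was lost under DESeq2, under the replicate block and whenever 1 library was left out. All 5 tested genes of the gamma-delta T-cell list rose (4.77 to 6.98 CPM against 167 to 185 CPM), with the largest log2 fold changes for Tcrg-C4 and Trdc. The 8 tested genes of the myeloid list also rose (7.85 to 9.23 CPM against 62.3 to 72.8 CPM). In Mek1/2-tKO libraries the largest parts of the myeloid sum were Fcer1g (25.8 and 25.7 CPM) and Tyrobp (20.3 and 16.0 CPM). How far the myeloid list tells myeloid cells from NK cells was not tested. Trdv4, Adgre1 and S100a8 had a count of 0 in both WT libraries, Cd163l1 and Csf1r in WT replicate 1, and Itgam in WT replicate 2. The part of these cells in the results below was not tested, and in bulk RNA fewer cells of a type and less RNA per cell cannot be told apart.

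**Figure D1:**
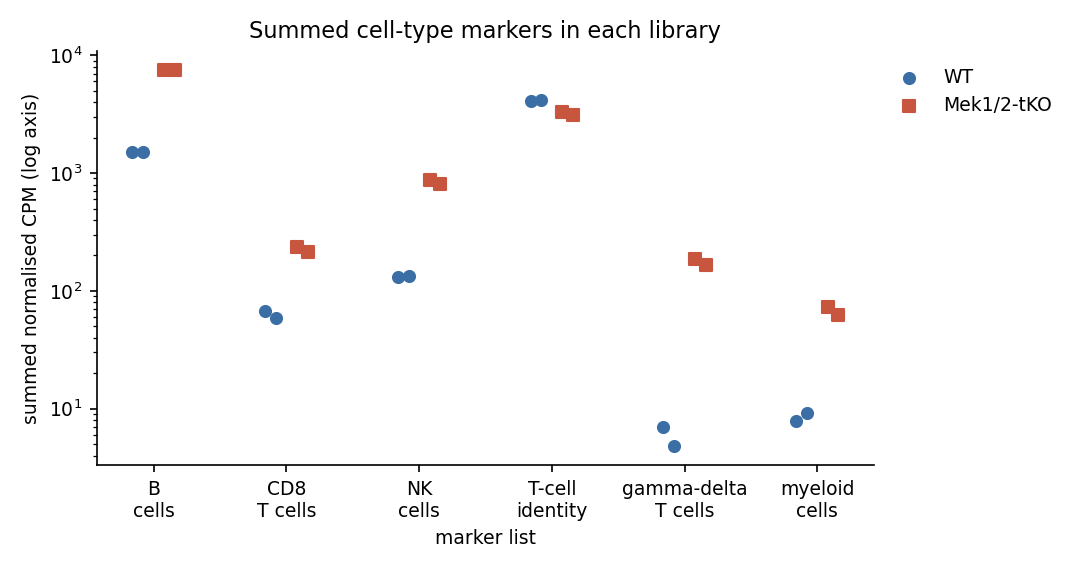
Summed normalised CPM (log axis) of 6 marker lists, with 1 point per library, WT as blue circles and Mek1/2-tKO as red squares. The B-cell, CD8, NK-cell, gamma-delta T-cell and myeloid sums lay higher in both Mek1/2-tKO libraries, and the T-cell identity sum lay lower.

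Among the feedback genes, Spry1, Spred1 and Spred2 fell in Mek1/2-tKO cells, Spry2 and Ier3 rose, and Spry4, Phlda1 and Errfi1 did not pass both thresholds (a 1.5-fold change and an adjusted p below 0.05). The 3 that fell were 37.5% of the group, where 16.4% of the 14330 genes tested were called lower, and the 2 that rose were 25%, where 19.3% were called higher. With 8 genes the shares are not read as a result about the group. The median log2 fold change of the 8 genes was -0.36, beside 0.02 over all genes tested, and their values spread from -2.19 to 2.38. Genes were called in both directions within the Sprouty family, and in the same direction within the Spred family.

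**Figure D2:**
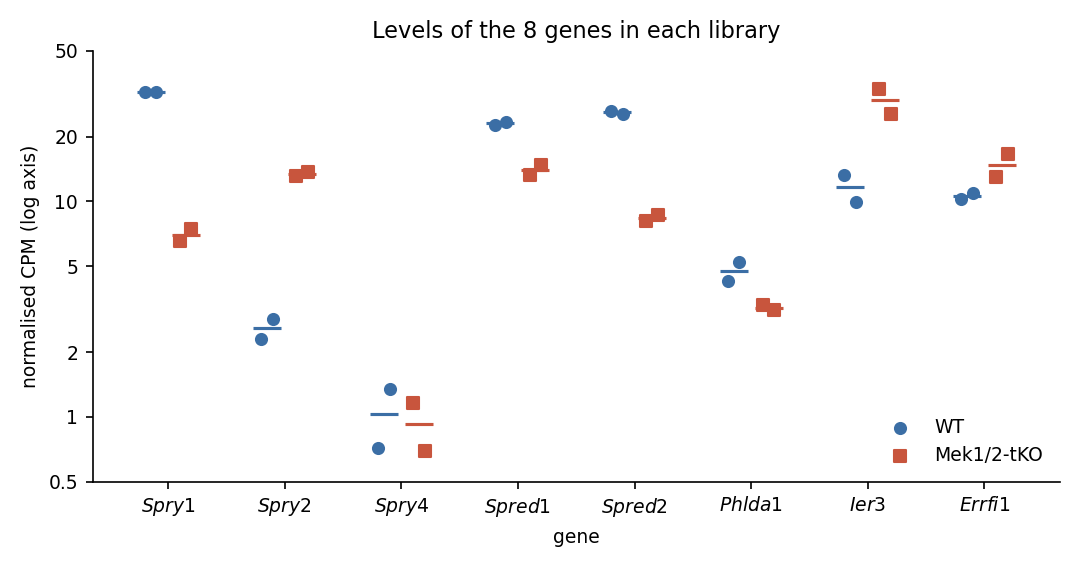
Normalised CPM (log axis) of the 8 feedback genes, with 1 point per library, WT as blue circles and Mek1/2-tKO as red squares, and a bar at the mean of each group of 2. The groups lie apart for every gene but Spry4, where they interleave near 1 CPM. How many of all tested genes lie apart in this way was not counted, so the separation is not read as a trait of these genes.

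Spry1 and Spry2 moved in opposite directions. Spry1 (ENSMUSG00000037211.12) lies on the plus strand of chromosome 3 between 37639947 and 37644598 in GRCm38, the build of the files, with 2906 bases of exon. It had 627 and 618 counts in WT and 101 and 140 in Mek1/2-tKO libraries, or 32.2 and 32.1 against 6.52 and 7.46 normalised CPM. Both Mek1/2-tKO libraries lay far below both WT libraries, which differed little from each other. Spry1 was 4.58-fold lower in Mek1/2-tKO cells (log2 fold change -2.19, SE 0.15, 95% interval -2.53 to -1.86, adjusted p = 6.78e-08), and 1.48% of the genes tested had a lower log2 fold change.

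Spry2 (ENSMUSG00000022114.5) is on the minus strand of chromosome 14 between 105891947 and 105896819, with 2087 bases of exon. Its counts were 45 and 55 in WT and 203 and 258 in Mek1/2-tKO libraries, which gave 2.31 and 2.85 against 13.1 and 13.7 CPM. The groups did not overlap, and the order was opposite to that of Spry1. Spry2 was 5.19-fold higher in Mek1/2-tKO cells (log2 fold change 2.38, SE 0.23, 95% interval 1.88 to 2.88, adjusted p = 1.69e-06).

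Spry4 (ENSMUSG00000024427.6), the rarest of the 8 genes, had 14 and 26 counts in WT and 18 and 13 in Mek1/2-tKO libraries, or 0.718 and 1.35 against 1.16 and 0.692 CPM. The groups overlapped, with the highest and the lowest library in opposite genotypes. The log2 fold change was -0.17 (SE 0.61, adjusted p = 0.834), and its 95% interval from -1.48 to 1.14 holds a fall or a rise of more than 2-fold, so that no difference was detectable at this depth. Without WT replicate 2 the value was 0.35, and without Mek1/2-tKO replicate 2 it was 0.16, so its sign rested on single libraries. Spry3 was not analysed here.

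Measured as TPM (transcripts as a share of all transcripts of a library), which corrects for exon length and so allows genes to be compared within a library, Spry1 made up 89.8 and 86.9% of the Sprouty transcripts in WT libraries and 25.6 and 27.6% in Mek1/2-tKO libraries. Spry2 made up 8.97 and 10.8% in WT and 71.5 and 70.8% in Mek1/2-tKO libraries. Spry4 stayed a small part of the family in every library, between 1.27 and 2.89%. The leading Sprouty gene was therefore Spry1 in both WT libraries and Spry2 in both Mek1/2-tKO libraries. The summed Sprouty level, given as normalised CPM per kilobase of exon so that genotypes can be set side by side, was 12.5 ± 0.251 (SD, n = 2) in WT and 9.04 ± 0.367 (SD, n = 2) in Mek1/2-tKO cells. The difference of these sums was not tested.

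**Figure D3:**
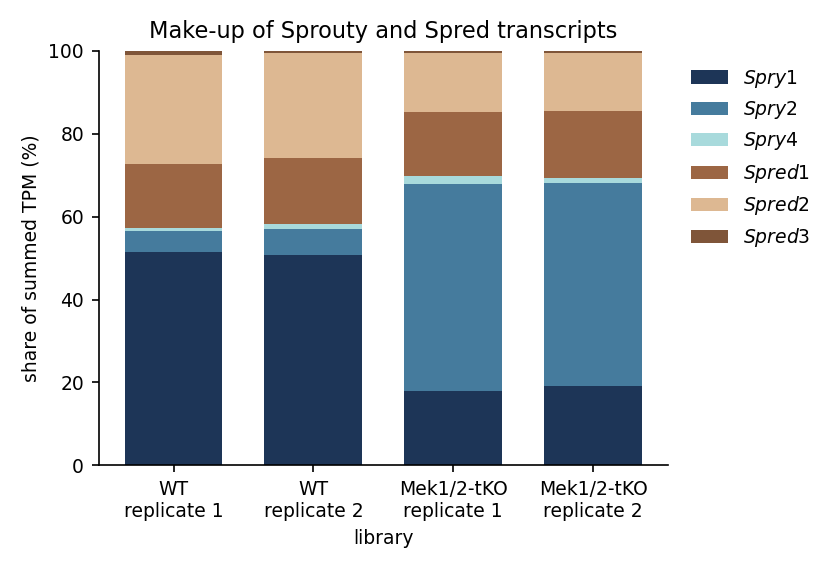
Share (%) of each Sprouty and Spred gene in their summed TPM, as 1 stacked bar per library. Spry1 is the tallest segment in both WT libraries (51.3 and 50.7%), and Spry2 is the tallest in both Mek1/2-tKO libraries (49.9 and 49.0%).

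The bases upstream of Spry1 and Spry2 are shown because these related genes moved in opposite directions. They are the 250 bases before the start in RefSeq (GRCm38.p6), 5′ to 3′ on the strand of the gene. Capitals mark GGAA, the core bound by ETS factors, some of which ERK phosphorylates. GGAA was searched on both strands, a choice made after the values were seen. The Spry1 stretch is chr3:37639697-37639946 (plus strand) and that of Spry2 is chr14:105896820-105897069 (minus strand).
Spry1: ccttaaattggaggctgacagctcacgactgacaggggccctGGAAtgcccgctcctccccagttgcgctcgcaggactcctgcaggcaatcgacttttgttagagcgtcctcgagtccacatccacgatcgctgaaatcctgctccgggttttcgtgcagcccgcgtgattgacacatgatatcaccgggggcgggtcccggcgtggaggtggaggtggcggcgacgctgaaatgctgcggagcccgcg
Spry2: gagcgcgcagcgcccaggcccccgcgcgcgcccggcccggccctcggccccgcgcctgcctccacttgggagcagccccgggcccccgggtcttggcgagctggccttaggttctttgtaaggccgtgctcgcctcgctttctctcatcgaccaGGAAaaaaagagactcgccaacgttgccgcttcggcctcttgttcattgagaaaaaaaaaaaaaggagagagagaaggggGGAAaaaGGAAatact

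The Spry1 stretch held 1 GGAA core and the Spry2 stretch held 3. Among 32851 RefSeq stretches of the same length, 93.4% held at least 1 and 54.7% at least 3, and the median was 3. Longer motifs of factors downstream of ERK were also searched, on both strands, from 250 bases before to 50 bases after the start. They were the ETS site CCGGAA, the AP-1 site TGANTCA, the CRE TGACGTCA and the CArG box bound by SRF. None of these contains another, but CCGGAA contains the GGAA core. Of the 32851 RefSeq windows searched, 14.9% held the ETS site, 7.81% the AP-1 site, 1.79% the CRE and 1.63% the CArG box. They included 1 window each for Spry1, Spry2, Spred1, Spred2 and Ier3 and 2 for Errfi1. The RefSeq starts are not always those of the counted genes. The Spred1 window ends at 117121120 and the first Errfi1 window at 150853845, both before the counted gene begins. The second Errfi1 window begins at 150854820, inside the counted gene. No window of Spry4 or Phlda1 was searched, so nothing is said here about their upstream bases. Matches were present in the Spry2 window, at base 34 after the start (chr14:105896770-105896798, minus strand), and in the second Errfi1 window, at base 51 before the start (chr4:150855007-150855038, plus strand). These are shown with 12 flanking bases on each side, or up to the end of the window, and with the motif in capitals.
Spry2 ETS site: aggtcatctatcCCGGAAtccgggagggt
Errfi1 CRE: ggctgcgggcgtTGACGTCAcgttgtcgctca

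The windows of Spry1, Spred1, Spred2 and Ier3 held none of these letter strings. Each string was absent from most RefSeq windows, so its absence here is not read as a trait of these genes. A match is a description of letters and not of a bound site.

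Both Spred genes fell. Spred2 (ENSMUSG00000045671.17, chromosome 11, 19924375 to 20024026, plus strand, 4619 bases of exon) had 514 and 489 counts in WT and 126 and 163 in Mek1/2-tKO libraries, or 26.4 and 25.4 against 8.14 and 8.68 CPM. The groups did not overlap, and the spread within each was small beside the gap between them. Spred2 was 3.07-fold lower in Mek1/2-tKO cells (log2 fold change -1.62, SE 0.16, 95% interval -1.95 to -1.28, adjusted p = 1.44e-06).

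Spred1 (ENSMUSG00000027351.14, chromosome 2, 117121374 to 117182279, plus strand, 6784 bases of exon) had 439 and 452 counts in WT and 206 and 277 in Mek1/2-tKO libraries, or 22.5 and 23.4 against 13.3 and 14.8 CPM. It was also lower in both Mek1/2-tKO libraries than in either WT library, by a smaller factor of 1.64 (log2 fold change -0.71, SE 0.15, 95% interval -1.03 to -0.39, adjusted p = 0.00109). Of the genes tested, 15.8% had a lower log2 fold change than Spred1 and 3.06% had a lower one than Spred2.

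Spred3, the related gene outside the group, had 24 and 15 counts in WT and 8 and 10 in Mek1/2-tKO libraries and was not called (log2 fold change -0.93, SE 0.64, adjusted p = 0.238). In TPM, Spred2 led the Spred family in WT libraries with 61.9 and 60.5%, and Spred1 had 36.0 and 38.1%. In Mek1/2-tKO libraries Spred1 led with 51.5 and 52.5%, and Spred2 had 46.3 and 45.4%. The summed Spred level went from 9.15 ± 0.112 to 3.97 ± 0.235 CPM per kilobase (SD, n = 2 each). For Sprouty and Spred genes together the sums were 21.7 ± 0.139 and 13.0 ± 0.602 CPM per kilobase, with the WT libraries above the Mek1/2-tKO libraries.

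Ier3, whose product prolongs ERK phosphorylation and so differs in role from the Sprouty and Spred proteins, rose. The gene (ENSMUSG00000003541.6, chromosome 17, 35821684 to 35822923, plus strand, 1131 bases of exon) had 259 and 192 counts in WT and 516 and 478 in Mek1/2-tKO libraries, or 13.3 and 9.96 against 33.3 and 25.5 CPM. Libraries of the same genotype differed more for Ier3 than for Spry1 or Spred2, but the groups did not overlap. Ier3 was 2.52-fold higher in Mek1/2-tKO cells (log2 fold change 1.33, SE 0.18, 95% interval 0.95 to 1.72, adjusted p = 3e-05).

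Errfi1 (ENSMUSG00000028967.10, chromosome 4, 150853919 to 150868892, plus strand, 3582 bases of exon) had 199 and 210 counts in WT and 200 and 311 in Mek1/2-tKO libraries, or 10.2 and 10.9 against 12.9 and 16.6 CPM. Both Mek1/2-tKO libraries lay above both WT libraries in normalised CPM, replicate 2 more so. In TPM the groups overlapped, with 5.55 and 5.86 in WT and 4.95 and 7.09 in Mek1/2-tKO libraries. The adjusted p was 0.0377, and the fold change of 1.40 was under the threshold (log2 fold change 0.49, SE 0.18, 95% interval 0.09 to 0.88). Without Mek1/2-tKO replicate 1 the log2 fold change was 0.65 and Errfi1 was called (adjusted p = 0.00703), which made 3 feedback genes called higher, and without Mek1/2-tKO replicate 2 the value was 0.28 (adjusted p = 0.273). Of the ErbB receptors that the Errfi1 protein binds, Erbb2 and Erbb4 had a count of 0 in all 4 libraries. Egfr had 13 and 6 counts in WT and 0 and 2 in Mek1/2-tKO libraries, too few to be tested. Erbb3 had 123 and 139 counts against 47 and 102 (log2 fold change -0.66, SE 0.29, adjusted p = 0.0709).

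Phlda1 (ENSMUSG00000020205.8, chromosome 10, 111506286 to 111508645, plus strand, 2205 bases of exon) had 83 and 101 counts in WT and 51 and 59 in Mek1/2-tKO libraries, or 4.26 and 5.24 against 3.29 and 3.14 CPM. The Mek1/2-tKO libraries both lay below the WT libraries, but the difference did not pass the test (log2 fold change -0.56, SE 0.30, adjusted p = 0.125), and its 95% interval ran from -1.20 to 0.08. Its relative Phlda3, also a pleckstrin-homology-like gene and a target of p53, rose by 1.54 on the log2 scale (SE 0.19), and Phlda2 had at most 6 counts in any library and was not tested. Of the genes that share only the name series of Ier3, Ier5 rose by 1.16 (SE 0.09) and Ier5l had a log2 fold change of -1.48 (SE 0.35, adjusted p = 0.00252).

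**Figure D4:**
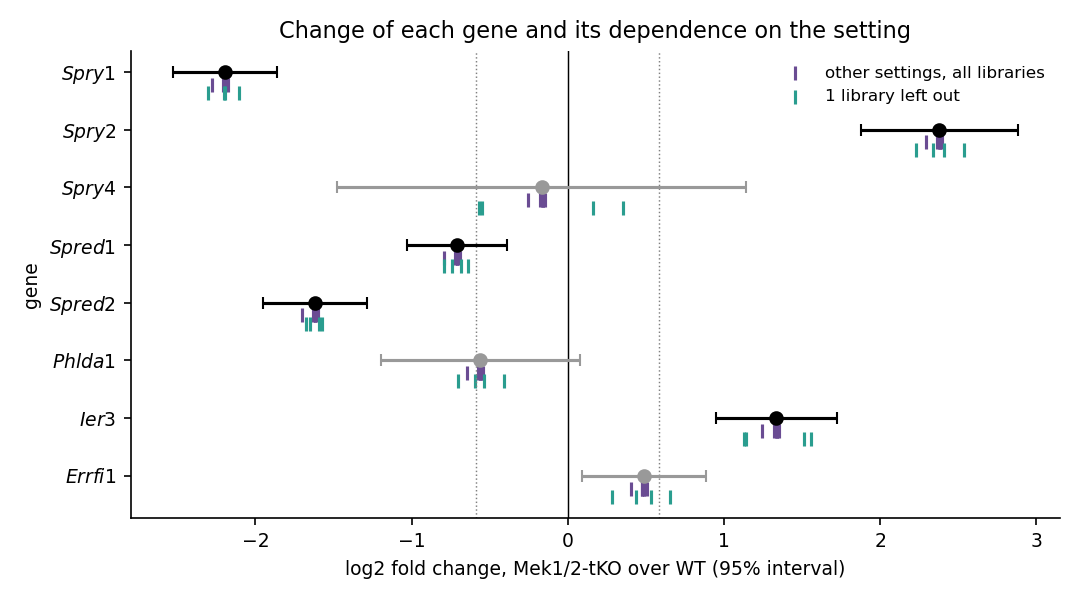
Log2 fold change of Mek1/2-tKO over WT for the 8 feedback genes, with the 95% interval (black where called, grey where not), a tick for each alternative setting with all libraries (purple) and a tick for each fit without 1 library (green). Dotted lines mark the 1.5-fold threshold, and the ticks of Spry4 alone lie on both sides of 0.

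By length-corrected level the order of the 8 genes also differed between genotypes. In WT libraries Spry1 (21.6 and 21.3 TPM) and Ier3 (22.9 and 17.0 TPM) led with overlapping values, and were followed without further overlap by Spred2, Spred1, Errfi1, Phlda1, Spry2 and Spry4. In Mek1/2-tKO libraries Ier3 led (40.4 and 34.5 TPM), followed by Spry2 (8.62 and 10.1 TPM) and Errfi1 (4.95 and 7.09 TPM). Spry1 came next with 3.08 and 3.93 TPM and overlapped with Spred1 (2.69 and 3.33 TPM), which overlapped with Spred2 (2.42 and 2.88 TPM). Phlda1 (2.05 and 2.19 TPM) and Spry4 (0.348 and 0.231 TPM) stood last. Spry2 thus moved from the seventh to the second place, and Spred2 from the third to the sixth.

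The feedback genes were next set beside other genes around the pathway. The MAPK activity score, a published set of ERK-dependent genes from human tumour cells, includes Spry2, Spry4 and Phlda1, of which Spry2 rose and the others were not called. Of its 7 other genes 5 were tested, and 4 of these (80%) fell, with a median of -1.04. Of all genes tested, 16.4% were called lower. With 5 genes the share is not read as a result about the list. Dusp4, a phosphatase that acts on ERK, went from 154 and 167 CPM to 52.7 and 56.3 CPM (log2 fold change -1.56, SE 0.09). Epha2 had a value of -1.42 (SE 0.55, adjusted p = 0.0421), but it had at most 40 counts in a library, and the call was lost under DESeq2 (adjusted p = 0.0915), under the replicate block (adjusted p = 0.0626), without WT replicate 1 (-1.58), without WT replicate 2 (-1.24) and without Mek1/2-tKO replicate 1 (-1.12). The 5 tested score genes outside the feedback group had log2 fold changes from -1.56 to -0.79, beside 2.38 for Spry2, -0.17 for Spry4 and -0.56 for Phlda1.

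Of 12 immediate-early and other ERK-induced genes, 5 fell and 1 rose, with a median of -0.52. These were 41.7 and 8.33%, where 16.4% of all genes tested were called lower and 19.3% higher. With 12 genes the shares are not read as a result about the list. The growth regulator Myc fell by 1.19 on the log2 scale (SE 0.09), and the transcription factor gene Egr1 fell by 0.94 (SE 0.12). The AP-1 gene Fosl1 rose by 0.66 (SE 0.21, adjusted p = 0.0185), a call that was lost with library size alone (0.58), without WT replicate 1 (adjusted p = 0.0687) and without WT replicate 2 (adjusted p = 0.0624).

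Of 15 genes whose products meet Sprouty or Spred proteins on the pathway, 4 fell and 2 rose, with a median of -0.19. These were 26.7 and 13.3%, where 16.4% of all genes tested were called lower and 19.3% higher. With 15 genes the shares are not read as a result about the list. Plcg1, which encodes phospholipase C gamma 1, had 85.6 and 83.5 CPM in WT and 23.8 and 23.9 CPM in Mek1/2-tKO libraries (log2 fold change -1.83, SE 0.10). The RAS exchange factor gene Sos2 fell by 1.12 (SE 0.18). The genes called higher were Gab2, an adaptor gene, and Tesk1, a kinase gene. Gab2 had 10 and 8 counts against 32 and 17 (log2 fold change 1.65, SE 0.65, adjusted p = 0.045), and with all libraries kept its call was lost under DESeq2 (adjusted p = 0.0916), with library size alone (adjusted p = 0.0517), with no filter (adjusted p = 0.0559) and under the replicate block (adjusted p = 0.0791). It was also lost without WT replicate 1 (adjusted p = 0.117), without WT replicate 2 (adjusted p = 0.18) and without Mek1/2-tKO replicate 1, where its value was 0.95 (adjusted p = 0.479). The Tesk1 value of 0.60 (SE 0.16) became 0.52 with library size alone, 0.48 without WT replicate 1 and 0.47 without Mek1/2-tKO replicate 2, and it was called in none of these.

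Of 14 other brakes on RAS-ERK signalling 4 fell and 2 rose, with a median of -0.23. These were 28.6 and 14.3%, where 16.4% of all genes tested were called lower and 19.3% higher. With 14 genes the shares are not read as a result about the list. The ubiquitin ligase genes Cblb and Cbl fell, by 1.48 (SE 0.11) and 0.95 (SE 0.11) on the log2 scale. The genes that rose were Rasa3, which encodes a RAS and RAP GTPase-activating protein (2.01, SE 0.12), and Dok1, which encodes an adaptor (0.81, SE 0.11). Nf1, which encodes the neurofibromin that Spred proteins bind, was among those that fell, as were both Spred genes; it had 9.55 and 9.39 CPM in WT and 5.30 and 5.96 CPM in Mek1/2-tKO libraries (log2 fold change -0.75, SE 0.22, adjusted p = 0.00994).

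**Figure D5:**
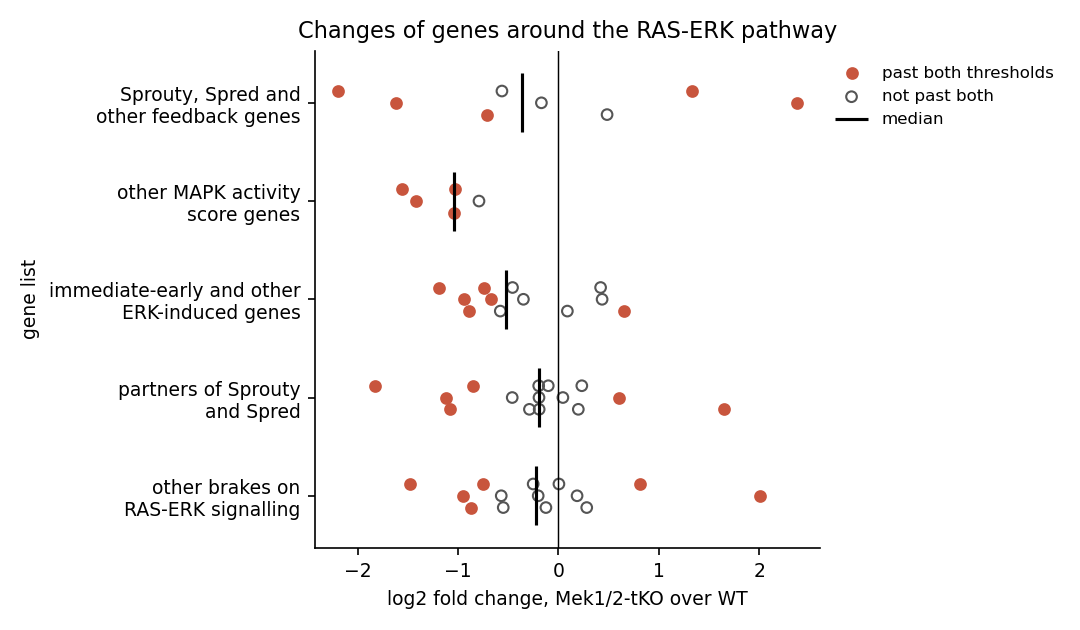
Log2 fold change of Mek1/2-tKO over WT for the tested genes of 5 lists, with filled points past both thresholds, open points not past both, and a black bar at the median. The feedback genes range from -2.19 to 2.38 with a median of -0.36, and the other MAPK activity score genes all lie below 0.

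The genes whose centred profile over the 4 libraries lay closest to that of a feedback gene were sought among 8018 tested genes of average log2 CPM of at least 4, as a description. Spry1 was closest to Hivep3 and Gata3, the transcription factor gene of Th2 cells, at distances of 0.09 and 0.0947 log2 CPM. Spry2 was closest to Unc93b1, which encodes a transporter of nucleic-acid-sensing Toll-like receptors (0.086), and Phf1 (0.0976). The pairs were Gm5898 (0.0114) and Dcp1a (0.0147) for Spred1, Fads1 (0.0203) and Acaca (0.0554), both genes of fatty acid synthesis, for Spred2, AU040320 (0.0256) and Trappc11 (0.0349) for Phlda1, Ppic (0.162) and Hopx (0.245) for Ier3, and Cdk5 (0.0324) and Iqsec1 (0.0575) for Errfi1. Spry4 had no close profile, with Nbr1 at 0.446 and Mettl22 at 0.458. A profile of Spred1's kind was common, with 757 genes within a distance of 0.2, whereas 12 genes were that close to Spry1, 11 to Spry2 and 1 to Ier3.

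Exons of Spry1 and Phlda1 lie partly under genes on the other strand. Of the Spry1 exon bases 24.4% were shared with Gm42922, which had 4 and 3 counts in WT and 0 in both Mek1/2-tKO libraries, and of the Phlda1 exon bases 33.0% were shared with Gm28592, which had 0 counts in all libraries. The library kit keeps the strand, but the strand setting of the counting was not given in the sources used here. The other 6 feedback genes shared no exon bases with another gene.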

How the data were processed

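Per the submitters' processing notes and the methods, the authors trimmed reads of stranded mRNA libraries with Trimmomatic 0.36, mapped them to GRCm38 and assigned them to genes with featureCounts of Subread 1.5.1. The annotation release and strand setting were not given in the sources used here. The deposited values were raw counts per gene and library, with no normalization, and 1 file per library. Library totals were 16330802 to 18931090, and mitochondrial genes took 1.56 to 2.24%.

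The counts were fitted on all 4 libraries by the robust quasi-likelihood test of edgeR 4.0.16 (R 4.3.3), after its filterByExpr filter and TMM scaling, and p-values were adjusted over the 14330 genes tested (Benjamini-Hochberg). A gene was called, and described as having risen or fallen, when it changed 1.5-fold or more with an adjusted p below 0.05. Normalised CPM used the TMM library sizes, and TPM used the exon lengths of the files. CPM per kilobase and the GGAA search were added after the values were seen. The median log2 fold change of all genes was 0.0155. Replicates differed beyond sampling noise (chi-square per gene 4.11 in WT and 10.7 in Mek1/2-tKO), and the fit was tested on simulated data. Symbols were matched for 54723 genes.

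The feedback genes and the lists were chosen with earlier results of these data known. The genes given by name were all feedback genes, Map2k1, Map2k2, relatives of the feedback genes and, per list, the called genes with the 2 largest changes in each direction; Nf1, which Spred proteins bind, the ErbB receptors and the marker genes with a count of 0 in a WT library were added after values were seen. Alternatives were DESeq2 1.42.0, its size factors, scaling by library size alone, a 2-fold threshold, a replicate block, no filter or a minimum of 10 counts per library, and leaving out each library. No protein sequences were used here.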

Additional observations from a re-analysis of the deposited data

How the results depend on the processing

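The calls of Spry1, Spry2, Spred2 and Ier3 held in every alternative, and no alternative with all libraries changed the call of Spry4, Phlda1 or Errfi1. Spred1 (-0.71) did not pass the 2-fold threshold. Leaving out 1 library gave Spry4 values of -0.57 to 0.35, above 0 without WT replicate 2 (0.35) and without Mek1/2-tKO replicate 2 (0.16), and Errfi1 values of 0.28 to 0.65, with a call at 0.65. At the 2-fold threshold the counts were 1 immediate-early gene lower and 0 higher, 1 other brake lower and 1 higher, 1 partner higher, and 1040 lower and 1725 higher over all genes; the stricter threshold itself lowers these. With library size alone 0 immediate-early genes and 0 partners were higher. Partners called higher numbered 1 under DESeq2, 1 with no filter, 1 with at least 10 counts in every library and 1 under the replicate block. The other MAPK activity score genes called lower numbered 3 under DESeq2, under the replicate block and with at least 10 counts in every library. Leaving out 1 library gave 0 to 1 partners and 0 to 1 immediate-early genes higher. The causes of the other changes were not tested. The deviations of libraries with equal replicate numbers had a correlation of -0.0262 across genes. With 2 libraries per group this cannot exclude that they shared a culture or day. Under the replicate block no feedback gene changed its call. Of 434 log2 fold changes of named genes under alternatives, 399 kept their direction and their side of the thresholds, 32 lost the call, 1 gained it and 2 changed sign. The 2-fold threshold, counted among these, reused the main fit, so there no value could change sign and no gene could gain a call. Of 132 counts of calls over lists or all genes, 113 differed from the main count by no more than 1.5 times, and the other 19 were lower by more. Low counts, at most 26 per library for Spry4, limit what the depth can show.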
